A study of Mus musculus with 18 samples.

Results

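The phagocyte NADPH oxidase was followed through the 5 of its genes Cybb, Cyba, Ncf1, Ncf4 and Rac2, which were taken by symbol from the gene count table of primary mouse bone marrow-derived macrophages (BMDMs). They are 5 of the 16314 genes in the table, each has 1 row, and all 5 were among the 12021 genes that passed the filter on low counts. Poly(A) RNA was sequenced from BMDMs of Prep-/- mice and of their heterozygous Prep+/- littermates on a C57BL6/J background. Prep encodes prolyl endopeptidase, a serine peptidase that cleaves short peptides after proline. Marrow cells of both genotypes were grown for 7 days in M-CSF at 50 ng/ml and were then left unstimulated (M0), given LPS at 50 ng/ml for 24 h (M1), or given IL-4 and IL-13 at 20 ng/ml each for 24 h (M2). Each of the 6 groups holds 3 libraries, 18 in all. The controls carry 1 null Prep allele, so no wild-type group enters any comparison, and the age of the donor mice is not stated for these cells. The design asks whether Prep knockout changed the macrophage transcriptome in each state, and whether it changed the response to the stimuli.

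The phagocyte oxidase moves electrons from cytosolic NADPH across a membrane to oxygen and so makes superoxide, the source of the respiratory burst with which macrophages and neutrophils attack ingested microbes. Its catalytic core is a membrane flavocytochrome made of gp91phox (Cybb) and p22phox (Cyba), and it is silent until cytosolic partners arrive, among them p47phox (Ncf1), p40phox (Ncf4) and the GTPase Rac2. Loss of a subunit of the core or of the cytosolic complex causes chronic granulomatous disease in people.

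On GRCm39, with GENCODE vM39 gene models, Cybb lies on the minus strand at chrX:9301491-9354010, Cyba on the minus strand at chr8:123150422-123159706 and Ncf1 on the minus strand at chr5:134248907-134258479. Ncf4 lies on the plus strand at chr15:78128982-78146784 and Rac2 on the minus strand of the same chromosome at chr15:78443367-78457429. All 5 are protein coding, and 4 share bases with genes on the opposite strand: Cybb with Xk and Gm33784, Cyba with Il17c, Ncf1 with Gtf2ird2, and Rac2 with Gm63166. The library kit marks strand, but the strand setting of the counting is not given in the sources used here. The neighbours Xk, Il17c and Gtf2ird2 were at or below 7.30 CPM in every library, where CPM is the count scaled to the library size after TMM normalisation. The paralogs Rac3 and Rac1 match the Rac2 transcript at 80.7% of 559 and 79.7% of 536 aligned bases, so that reads could in principle be split among them, and how reads with several matches were counted is not stated.

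The factors known to act at phagocyte oxidase promoters include the ETS factor PU.1 (Spi1) and interferon regulatory factors, so the 250 bases before the start of each canonical transcript were searched on both strands for their binding letters, which were chosen with earlier results of these data known. The PU.1 core GAGGAA was present in the windows of Ncf4 and Rac2 and in 23.5% of the 11609 windows of tested protein-coding genes. Its longer form GAGGAAGT, which contains the core, was present in the same 2 members and in 2.31% of all windows. The interferon response core GAAANNGAA was present in Cybb, in 3 places, and in Ncf1, against 7.12% of all windows. The composite GGAANNGAA was present in Rac2 and in 6.73% of all windows. No window letters of Cyba matched any of the 4 patterns. The windows of Cybb, the member with the largest knockout difference, and of Ncf4 and Rac2, the 2 members that fell with knockout after LPS, are shown 5′ to 3′ on the strand of the gene, with every match to any pattern in capitals. They span chrX:9335571-9335820 (minus strand), chr15:78128732-78128981 (plus strand) and chr15:78457430-78457679 (minus strand) of GRCm39, and the Cybb window lies inside the annotated gene because longer transcript models start farther upstream.

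Cybb: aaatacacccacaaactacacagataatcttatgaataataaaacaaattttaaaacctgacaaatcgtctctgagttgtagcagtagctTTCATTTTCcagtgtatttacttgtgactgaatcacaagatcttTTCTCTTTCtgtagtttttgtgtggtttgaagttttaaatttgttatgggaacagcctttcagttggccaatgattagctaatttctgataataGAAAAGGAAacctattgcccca

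Ncf4: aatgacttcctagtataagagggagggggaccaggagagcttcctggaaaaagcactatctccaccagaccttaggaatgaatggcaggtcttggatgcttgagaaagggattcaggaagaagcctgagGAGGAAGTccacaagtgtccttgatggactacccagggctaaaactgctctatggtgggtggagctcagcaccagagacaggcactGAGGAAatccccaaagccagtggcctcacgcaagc

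Rac2: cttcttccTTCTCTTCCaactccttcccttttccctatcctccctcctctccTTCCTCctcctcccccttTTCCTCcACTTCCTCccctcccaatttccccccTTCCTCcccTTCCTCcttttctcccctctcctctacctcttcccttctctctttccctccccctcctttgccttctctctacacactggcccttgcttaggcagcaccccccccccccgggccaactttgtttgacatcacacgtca

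The capitals of Cybb are 3 interferon response cores, of which the nearest ends 14 bases before the transcript start. The capitals of Ncf4 are the extended PU.1 letters at 121 to 114 bases before the start and a second core at 35 to 30. Rac2 holds 5 PU.1 cores on its opposite strand between 198 and 133 bases before the start, and its composite match lies at 242 to 234. A match of letters is a description of the window and not a bound site.

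Library totals ran from 19068237 to 22598279 assigned reads, and TMM factors from 0.818 to 1.20. Within groups, Prep-/- M0 replicate 3 and Prep-/- M2 replicate 3 stood apart, with chi-square values per gene of 112 and 120 and of 111 and 111 against the other libraries of their group, while every other pair of replicates was at most at 49.1. Without them Cybb was at 1.34 in M0 and 1.15 in M2 on the log2 scale for knockout, larger than with them, and the other members that moved are given with the comparisons. The label check held in every state: Prep was at 26.0 to 42.5 CPM in the Prep+/- libraries and at 1.48 to 3.22 CPM in the Prep-/- libraries (log2 fold changes -4.29, -3.74 and -3.77 in M0, M1 and M2). All 8 macrophage markers were present, with summed levels of 10027 to 48180 CPM, whereas B cell, T and NK cell, dendritic cell and stromal marker lists summed to at most 11.5, 0.285, 2.59 and 19.5 CPM in any library. The 13 granulocyte markers summed to 51.5 to 296 CPM. Below, a gene "rose" or "fell" when edgeR's quasi-likelihood test gave a Benjamini-Hochberg adjusted p under 0.05 over all 12021 genes, and a DEG also changed by over 1.5-fold. Differences are given as the log2 fold change of that model (log2FC) with its standard error (SE). Counts at an unadjusted p under 0.05 are at a looser limit than the shares of all genes beside them. No share of all genes was taken at that limit, so these counts have no background. The p-values rest on the spread between libraries within groups, estimated for each gene over all 6 groups together and not for each group apart. The 3 libraries of a group are described by the study as biological replicates.

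Cybb, the electron-carrying subunit, had the widest range of the 5 members: its highest group mean was 12.4 times its lowest. It was at 354, 355 and 342 CPM in the 3 Prep+/- M0 libraries and at 954, 839 and 473 CPM in the 3 Prep-/- M0 libraries. Every knockout library was above every control, with the third replicate nearest to them. After LPS the levels were 2335, 1987 and 2006 CPM in Prep+/- and 2217, 2428 and 2235 CPM in Prep-/- BMDMs, and here the genotypes overlapped. After IL-4 and IL-13 they were 185, 203 and 168 CPM in Prep+/- and 419, 395 and 329 CPM in Prep-/- BMDMs, again with no overlap. In ascending order of the means, Prep+/- M2 was lowest, followed by Prep+/- M0, Prep-/- M2, Prep-/- M0, Prep+/- M1 and Prep-/- M1. Prep+/- M0 overlapped with Prep-/- M2, and the M1 groups overlapped with each other.

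Cyba, the partner that stabilises gp91phox and docks p47phox, had a narrower range, with a highest group mean 1.98 times the lowest, and a wider spread within groups. Its levels were 636, 563 and 481 CPM in Prep+/- M0 and 766, 549 and 991 CPM in Prep-/- M0, and the second knockout replicate lay among the controls. In M1 they were 902, 1307 and 1117 CPM in Prep+/- and 831, 778 and 867 CPM in Prep-/- BMDMs, where the knockout libraries were all lower. In M2 they were 734, 639 and 695 CPM in Prep+/- and 1100.3, 835 and 1028 CPM in Prep-/- BMDMs, where the knockout libraries were all higher. Only Prep+/- M0, the lowest group, was clear of its neighbour in the order of means, which went on through Prep+/- M2, Prep-/- M0, Prep-/- M1 and Prep-/- M2 to Prep+/- M1.

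Ncf1, the organiser that is phosphorylated to start assembly, was at 329.6, 321 and 316 CPM in Prep+/- M0 and at 504, 478 and 451 CPM in Prep-/- M0, with no overlap. The M1 libraries were at 606, 596 and 573 CPM in Prep+/- and 533, 607 and 580.0 CPM in Prep-/-, and the genotypes overlapped. In M2 the levels were 304, 318 and 278 CPM in Prep+/- and 365, 364 and 284 CPM in Prep-/- BMDMs, with the third knockout replicate among the controls. The group means ran from 300.0 CPM in Prep+/- M2 to 592 CPM in Prep+/- M1, and the Prep-/- M0 group stood clear of the 3 groups below it and of both M1 groups above it.

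Ncf4, the phosphoinositide-binding subunit that supports oxidase activity on phagosomes, was the least abundant member by CPM. It was at 112, 117 and 96.1 CPM in Prep+/- M0 and at 206, 139 and 138 CPM in Prep-/- M0; all knockout libraries were higher, the first by the widest margin. In M1 it was at 323, 354 and 337 CPM in Prep+/- and 220.1, 249 and 267 CPM in Prep-/- BMDMs, and all knockout libraries were lower. In M2 it was at 137, 134 and 149.6 CPM in Prep+/- and 149, 138 and 181 CPM in Prep-/- BMDMs, with overlap. Prep+/- M0 was the lowest group and the M1 groups were the highest, each clear of its neighbour, while Prep+/- M2, Prep-/- M2 and Prep-/- M0 followed each other with overlap.

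Rac2, the blood-cell GTPase that switches the complex on, was the tightest member within groups, with an SD of at most 6.68% of the mean. It was at 321, 294 and 282 CPM in Prep+/- M0 and at 422, 399.8 and 442 CPM in Prep-/- M0. LPS brought it to 1292, 1414 and 1350.4 CPM in Prep+/- and to 949.7, 944 and 1010.1 CPM in Prep-/- BMDMs. The genotypes did not overlap in either state, and the knockout was the higher one in M0 and the lower one in M1. In M2 the levels were 275, 277 and 292 CPM in Prep+/- and 290.4, 302 and 308 CPM in Prep-/- BMDMs, which overlapped. Prep+/- M2, Prep+/- M0 and Prep-/- M2 overlapped from neighbour to neighbour at the bottom of the order, and Prep-/- M0, Prep-/- M1 and Prep+/- M1 followed, each clear of the next.

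**Figure D1:**
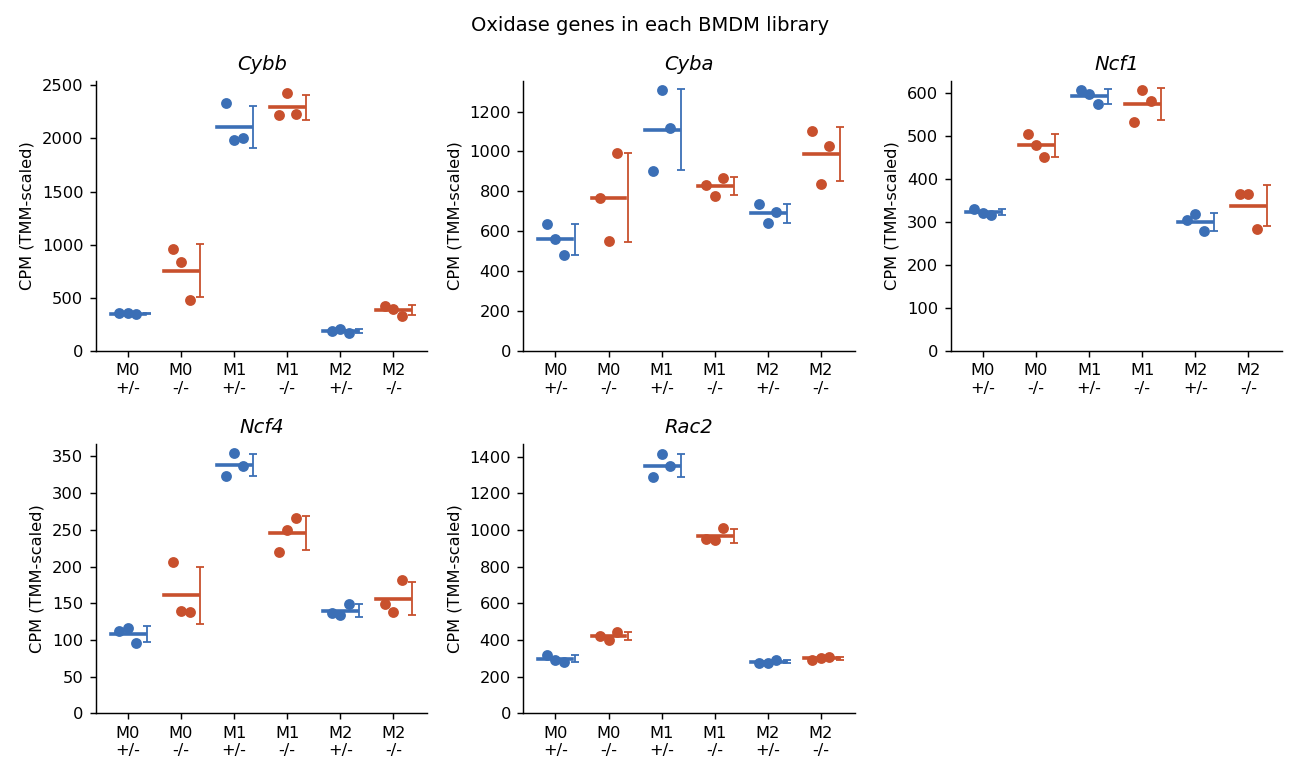
CPM after TMM scaling (linear axis from 0) of the 5 members in each of the 18 libraries; points are libraries, horizontal bars group means and error bars SD (n = 3), blue for Prep+/- and orange for Prep-/-. Cybb and Rac2 were highest in the M1 groups, and the Prep-/- points were above the Prep+/- points in M0 for all members except Cyba, where they overlapped.

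In unstimulated BMDMs, 4 of the 5 members rose with Prep knockout, and Cyba was on the same side without passing the test. Cybb was 2.15-fold higher (log2FC 1.11 ± 0.19 (SE), adjusted p = 0.000162) and was the 1 DEG among them. Ncf1 (log2FC 0.57 ± 0.10 (SE), adjusted p = 0.000345), Ncf4 (log2FC 0.57 ± 0.15 (SE), adjusted p = 0.00431) and Rac2 (log2FC 0.49 ± 0.09 (SE), adjusted p = 0.000235) rose by 1.48-, 1.49- and 1.41-fold, under the limit for a DEG. Cyba was 1.37-fold higher (log2FC 0.46 ± 0.18 (SE), adjusted p = 0.0507), and its value moved from 0.22 without the third to 0.66 without the second Prep-/- M0 replicate, the latter with an adjusted p of 0.00695. DESeq2 gave Cyba an adjusted p of 0.0386. Among all 12021 genes, 48.5% changed at the adjusted p alone and 32.6% were DEGs, so that 4 and 1 of 5 members stand against a background in which much of the transcriptome differed. The DEGs numbered 3 instead of 1 without Prep+/- M0 replicate 1, Prep-/- M0 replicate 2 or Prep-/- M0 replicate 3, and 2 without Prep+/- M0 replicate 2. The additional ones were Ncf1, Ncf4 or Cyba.

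After LPS the direction was different for the GTPase and p40phox. Rac2 was at 968 ± 36.5 CPM in Prep-/- and 1352 ± 61.4 CPM in Prep+/- BMDMs (mean ± SD, n = 3) and fell with knockout (log2FC -0.48 ± 0.09 (SE), adjusted p = 0.000725). Ncf4 also fell (log2FC -0.46 ± 0.15 (SE), adjusted p = 0.0215), a change that missed the threshold without Prep+/- M1 replicate 2 (adjusted p = 0.0633) or without Prep-/- M1 replicate 1 (adjusted p = 0.0825). Cyba, at -0.43 ± 0.18 (SE, adjusted p = 0.0809), did not pass with all libraries in the model, although it did when only the M1 libraries were fitted (adjusted p = 0.0221) and without Prep+/- M1 replicate 1 (adjusted p = 0.04). Cybb (log2FC 0.12 ± 0.18 (SE), adjusted p = 0.63) and Ncf1 (log2FC -0.05 ± 0.10 (SE), adjusted p = 0.751) did not pass. By edgeR and by DESeq2, 2 members passed the adjusted p and 0 were DEGs, and 3 had an unadjusted p under 0.05 with both tools. Over all genes 36.4% passed the adjusted p and 22.5% were DEGs, and no share was taken at the unadjusted p.

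In BMDMs given IL-4 and IL-13, Cybb alone among the members rose with knockout, by 2.06-fold (log2FC 1.04 ± 0.19 (SE), adjusted p = 0.000698), and it was again a DEG. Cyba was 1.43-fold higher and lay at the threshold (log2FC 0.52 ± 0.18 (SE), adjusted p = 0.0502). In this state same-numbered libraries of the genotypes deviated together, and with the replicate block Cyba had an adjusted p of 0.0543 when all libraries were fitted and of 0.0113 when only the M2 libraries were. DESeq2 gave 0.0287, and Cyba was a DEG without Prep-/- M2 replicate 2 (log2FC 0.63). Ncf1 (log2FC 0.17 ± 0.10 (SE), adjusted p = 0.254), Ncf4 (log2FC 0.16 ± 0.15 (SE), adjusted p = 0.472) and Rac2 (log2FC 0.09 ± 0.09 (SE), adjusted p = 0.474) did not pass. Ncf1 did without Prep-/- M2 replicate 3 (0.29, adjusted p = 0.024). The background was 24.7% of genes at the adjusted p and 16.2% as DEGs.

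**Figure D2:**
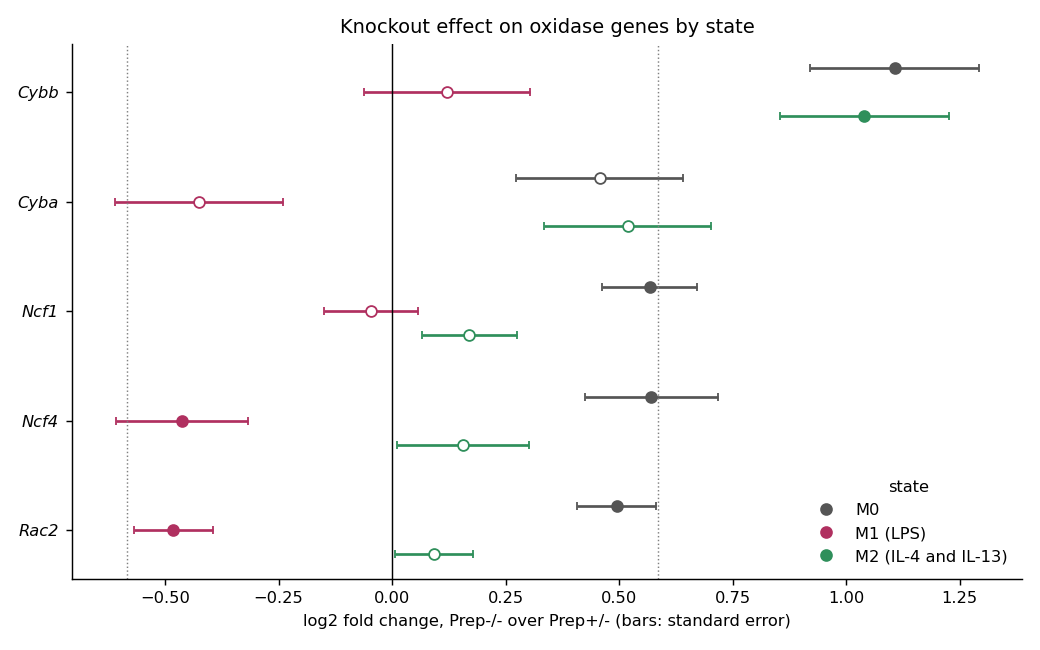
Log2 fold change of Prep-/- over Prep+/- BMDMs for the 5 members in each state, with bars of 1 standard error; filled points have an adjusted p under 0.05 and dotted lines mark a 1.5-fold change. Cybb lies right of the dotted line in M0 and M2, and Ncf4 and Rac2 lie right of 0 in M0 and left of 0 in M1.

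The summed levels of the macrophage and granulocyte marker lists also differed between the genotypes, and each sum was carried by few genes. The summed macrophage markers were 19002 to 22408 CPM in Prep+/- and 30386 to 48180 CPM in Prep-/- M0 libraries, 45757 to 47208 against 31000 to 37043 CPM in M1, and 10027 to 12203 against 13889 to 19565 CPM in M2. Lyz2 held most of this sum, with means of 35216 ± 1228 CPM in Prep+/- and 23781 ± 3023 CPM in Prep-/- M1 (± SD, n = 3). Gene by gene, 6 of the 8 macrophage markers rose and 0 fell with knockout in M0, by edgeR, by DESeq2 and at an unadjusted p under 0.05. Over all genes 48.5% passed there by edgeR. In M1 Cd68 and Mertk rose and Lyz2 and Cd14 fell, beside 36.4% of all genes, with a list median of -0.08 on the log2 scale. In M2 Csf1r and Lyz2 rose, beside 24.7% of all genes, and DESeq2 passed 4 markers higher and 0 lower. For the knockout effect in M1 minus that in M0, 4 macrophage markers passed lower and Cd68 higher, beside 24.6% of all genes. The summed granulocyte markers, a cell type that also expresses the oxidase, were 76.1 to 99.2 CPM in Prep+/- and 133 to 195 CPM in Prep-/- M0 libraries, 233 to 296 against 71.7 to 102 CPM in M1, and 51.5 to 60.4 against 55.5 to 85.6 CPM in M2. The M1 sum was carried by Mmp8, at 140.3 ± 15.3 in Prep+/- and 27.9 ± 9.04 CPM in Prep-/-, and S100a8, at 51.8 ± 14.1 and 22.7 ± 3.05 CPM. The list itself responded to LPS. In Prep+/- BMDMs Camp, S100a8, S100a9 and Mmp8 rose and 0 of 8 tested fell, beside 52.1% of all genes. In Prep-/- BMDMs 0 rose and 6 fell, beside 57.1%. Of the 8 granulocyte markers tested, 5 rose in M0 (Ltf, Camp, Ngp, S100a8 and S100a9) and 0 fell, beside 48.5% of all genes. By DESeq2 0 fell as well, and 1 was lower at an unadjusted p under 0.05. In M1 Camp, S100a8 and Mmp8 fell and 5 did not pass, beside 36.4% of all genes. In M2 0 passed by edgeR, beside 24.7% of all genes, 2 passed higher by DESeq2 and 2 were higher at an unadjusted p under 0.05. For the knockout effect in M1 minus that in M0, 6 granulocyte markers passed lower and 0 higher, beside 24.6% of all genes. All 13 granulocyte markers had reads in at least 1 library of the series, and 0, 0, 1, 0, 2 and 1 of them were at 0 in every library of Prep+/- M0, Prep-/- M0, Prep+/- M1, Prep-/- M1, Prep+/- M2 and Prep-/- M2. Of these markers, Ly6g, Elane, Ctsg, Mpo and Prtn3 were at or below 0.142, 0.410, 0.323, 1.09 and 1.23 CPM in every library, and Mmp8 and S100a8, at up to 152 and 65.4 CPM, reached the highest levels of the list. The B cell sum differed too, at low levels: 3.01 to 4.79 CPM in Prep+/- and 8.66 to 11.5 CPM in Prep-/- M0 libraries. In M1 it was 2.06 to 2.59 against 5.09 to 6.96 CPM, and in M2 1.56 to 2.81 against 0.959 to 4.45 CPM. Cd79b, the 1 B cell marker tested, rose with knockout in M0 and M1 (log2 fold changes 1.42 and 1.39) and did not pass in M2. The part of any of these cell types in the oxidase differences was not tested, and in bulk RNA fewer cells of a type and less RNA per cell cannot be told apart.

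LPS raised all 5 members in Prep+/- BMDMs, each as a DEG. Cybb rose 6.02-fold (log2FC 2.59 ± 0.19 (SE), adjusted p = 1.78e-08) and Rac2 4.52-fold (log2FC 2.18 ± 0.09 (SE), adjusted p = 2.50e-11). Ncf4 rose 3.12-fold (log2FC 1.64 ± 0.15 (SE), adjusted p = 1.34e-07), Cyba 1.98-fold (log2FC 0.99 ± 0.19 (SE), adjusted p = 0.000294) and Ncf1 1.84-fold (log2FC 0.88 ± 0.11 (SE), adjusted p = 2.78e-06). In the same comparison 52.1% of all genes passed the adjusted p and 37.7% were DEGs.

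In Prep-/- BMDMs the rise was there for 4 members and was a DEG for 3. Cybb rose 3.04-fold (log2FC 1.60 ± 0.19 (SE), adjusted p = 2.29e-06), Rac2 2.30-fold (log2FC 1.20 ± 0.09 (SE), adjusted p = 1.32e-08) and Ncf4 1.52-fold (log2FC 0.61 ± 0.15 (SE), adjusted p = 0.00201). Ncf4 lay near the fold limit and was no longer a DEG without Prep-/- M0 replicate 2 (0.48), without Prep-/- M0 replicate 3 (0.48), or without Prep-/- M1 replicate 2 (0.56) or 3 (0.51), and when only the compared libraries were fitted (0.57), though its adjusted p passed in each case. Ncf1 rose 1.20-fold (log2FC 0.26 ± 0.10 (SE), adjusted p = 0.0406), and this passed under few alternatives: without Prep-/- M0 replicate 2 or 3, or Prep-/- M1 replicate 1, 2 or 3, the adjusted p was 0.0661 to 0.232. The numbers of these libraries also paired, and with the replicate block the adjusted p of Ncf1 was 0.0307 with all libraries and 0.238 with only those compared. Cyba was at 0.10 ± 0.18 (SE, adjusted p = 0.654) and did not pass. The background was 57.1% of genes at the adjusted p and 42.0% as DEGs.

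The difference between the 2 responses to LPS was tested as an interaction, the knockout effect in M1 minus that in M0, in which M0 and M1 libraries of both genotypes enter. All 5 members had negative values that passed both limits. On the log2 scale they were -0.99 ± 0.26 (SE, adjusted p = 0.0119) for Cybb, -0.88 ± 0.26 (SE, adjusted p = 0.0218) for Cyba, -0.61 ± 0.15 (SE, adjusted p = 0.0071) for Ncf1, -1.03 ± 0.21 (SE, adjusted p = 0.00219) for Ncf4 and -0.98 ± 0.12 (SE, adjusted p = 6.22e-05) for Rac2. Over all genes 24.6% passed the adjusted p in this test and 21.1% also passed the fold limit. The levels behind the values differ by member: Cybb and Ncf1 started higher in the knockout and ended overlapping with the controls, whereas Ncf4 and Rac2 started higher and ended lower. The Cyba interaction was the least firm, with an adjusted p of 0.0672 without Prep+/- M0 replicate 3, 0.0722 without Prep+/- M1 replicate 2, 0.0532 without Prep-/- M0 replicate 3 and 0.0536 without Prep-/- M1 replicate 2. Without Prep-/- M0 replicate 1 or Prep-/- M1 replicate 1, Ncf1 was at -0.58 and passed the adjusted p but not the fold limit.

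**Figure D3:**
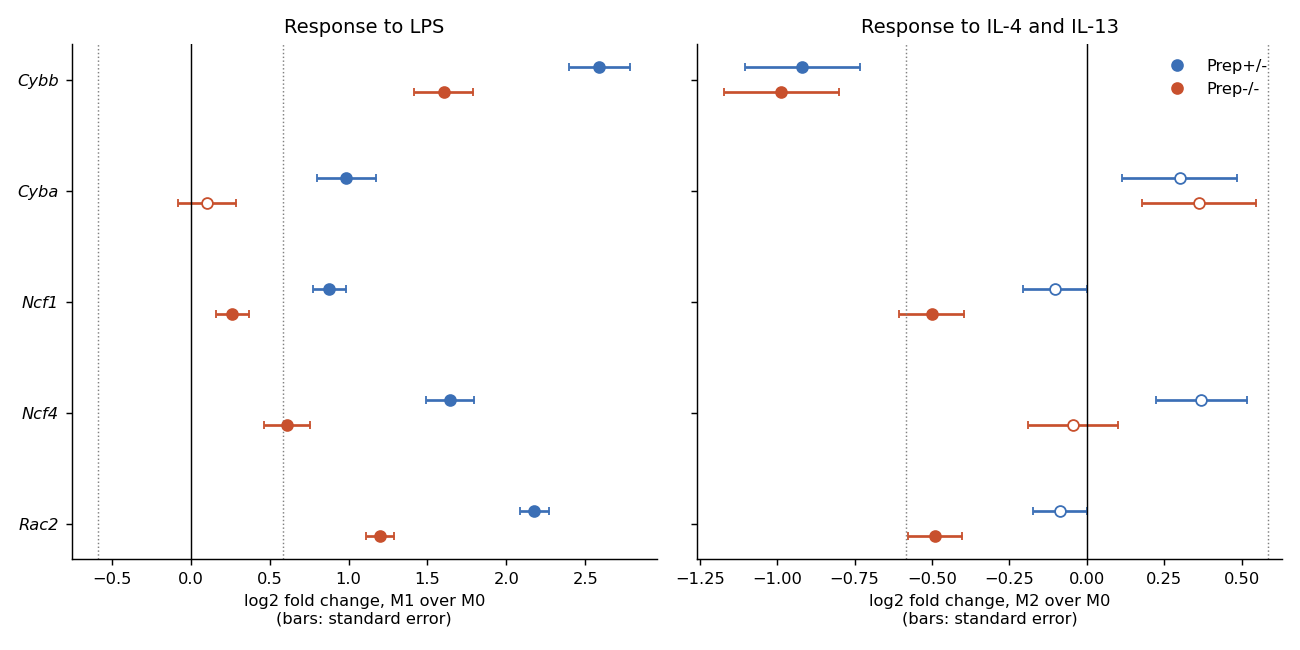
Log2 fold change of M1 over M0 (left) and M2 over M0 (right) for the 5 members in Prep+/- (blue) and Prep-/- (orange) BMDMs, with bars of 1 standard error; filled points have an adjusted p under 0.05 and dotted lines mark a 1.5-fold change. On the left, every orange point lies left of its blue partner.

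IL-4 and IL-13 lowered Cybb in both genotypes. It fell to 0.53 of its M0 level in Prep+/- (log2FC -0.92 ± 0.19 (SE), adjusted p = 0.00202) and to 0.50 in Prep-/- BMDMs (log2FC -0.99 ± 0.19 (SE), adjusted p = 0.00042), a DEG in each. In Prep+/- BMDMs it was the 1 member that passed, against 18.4% of genes at the adjusted p and 12.9% as DEGs. Cyba (log2FC 0.30 ± 0.18 (SE), adjusted p = 0.293) and Ncf4 (log2FC 0.37 ± 0.15 (SE), adjusted p = 0.0929) were higher in all 3 M2 libraries without passing. When only the compared libraries were fitted, Ncf4 had an adjusted p of 0.0101. In Prep-/- BMDMs Ncf1 (log2FC -0.50 ± 0.10 (SE), adjusted p = 0.00101) and Rac2 (log2FC -0.49 ± 0.09 (SE), adjusted p = 0.000255) fell as well, against 43.8% and 30.2% of genes. Ncf1 missed the threshold when only the compared libraries were fitted (adjusted p = 0.0558), and was a DEG without Prep-/- M2 replicate 1 (-0.59). Cyba (log2FC 0.36 ± 0.18 (SE), adjusted p = 0.125) and Ncf4 (log2FC -0.04 ± 0.15 (SE), adjusted p = 0.829) did not pass. Without Prep-/- M0 replicate 3, Cyba did (0.58, adjusted p = 0.0152).

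These responses share their M0 libraries with those to LPS, so the values are given side by side and not correlated. The interaction of knockout with IL-4 and IL-13 gave -0.07 ± 0.26 (SE, adjusted p = 0.903) for Cybb, 0.06 ± 0.26 (SE, adjusted p = 0.914) for Cyba, -0.40 ± 0.15 (SE, adjusted p = 0.1) for Ncf1, -0.41 ± 0.21 (SE, adjusted p = 0.218) for Ncf4 and -0.40 ± 0.12 (SE, adjusted p = 0.0488) for Rac2. By edgeR and by DESeq2 alike, Rac2 was the 1 member that passed the adjusted p, 0 also passed the fold limit, and 2 had an unadjusted p under 0.05. The background was 9.64% of genes at the adjusted p and 8.66% at both limits, and no share was taken at the unadjusted p. The Rac2 value was lost in 15 of the 19 alternatives, among them each left-out library except Prep+/- M0 replicate 1 and Prep-/- M0 replicate 2, with adjusted p up to 0.131.

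Between the 2 stimulated states, the knockout effect in M2 minus that in M1 was positive for every member. Cybb (difference 0.92 ± 0.26 (SE), adjusted p = 0.0279) and Cyba (difference 0.94 ± 0.26 (SE), adjusted p = 0.0246) passed both limits and Rac2 (difference 0.57 ± 0.12 (SE), adjusted p = 0.00628) the adjusted p alone, against 13.8% of genes at the adjusted p and 11.9% at both. Ncf4 (difference 0.62 ± 0.21 (SE), adjusted p = 0.0558) and Ncf1 (difference 0.22 ± 0.15 (SE), adjusted p = 0.357) did not pass. With DESeq2 4 members passed both limits, Ncf4 and Rac2 being the additional ones. DESeq2 also passed more of the 12021 genes at both limits, 1742 against 1435 by edgeR. The Cybb adjusted p rose to 0.0506, 0.0504, 0.058, 0.0523 and 0.0594 without Prep+/- M1 replicate 1, Prep+/- M2 replicate 1, Prep+/- M2 replicate 3, Prep-/- M1 replicate 1 and Prep-/- M2 replicate 1. For Cyba it rose to 0.0782, 0.0552, 0.0714, 0.0526, 0.0578 and 0.0671 without Prep+/- M1 replicate 2, Prep+/- M1 replicate 3, Prep+/- M2 replicate 2, Prep-/- M1 replicate 1, Prep-/- M1 replicate 2 and Prep-/- M2 replicate 1.

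Levels of different genes were compared as CPM per kb of the canonical transcript, which is 4759 bases for Cybb, 793 for Cyba, 2721 for Ncf1, 1483 for Ncf4 and 3484 for Rac2. On this scale the core partners were far apart in unstimulated Prep+/- BMDMs, with Cyba at 706 ± 97.4 and Cybb at 73.7 ± 1.60 CPM per kb (mean ± SD, n = 3). LPS brought them to 1398 ± 256 and 443 ± 41.1 CPM per kb, and IL-4 and IL-13 to 869 ± 60.6 and 38.9 ± 3.72 CPM per kb. In Prep-/- BMDMs the Cybb levels were 159 ± 52.7 in M0, 482 ± 24.6 in M1 and 80.1 ± 9.90 CPM per kb in M2. Ncf4, low by CPM, was at 73.0 ± 7.33 CPM per kb in Prep+/- M0, beside the 73.7 ± 1.60 of Cybb and the 85.8 ± 5.73 of Rac2. The choice of length moved these levels. Per kb of all annotated exons (2305 bases for Cyba), the Prep+/- M0 means were 243 for Cyba, 60.3 for Cybb, 46.9 for Ncf4 and 84.3 for Rac2, so that the gap between the core partners was narrower and Ncf4 was the lowest. Cyba was the highest member in each group per kb of canonical transcript, but per kb of all exons its mean in Prep-/- M1 was 358 CPM per kb, under the 394 of Cybb. In Prep+/- M1 the mean of Rac2 per kb of all exons was 381, above the 363 of Cybb.

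**Figure D4:**
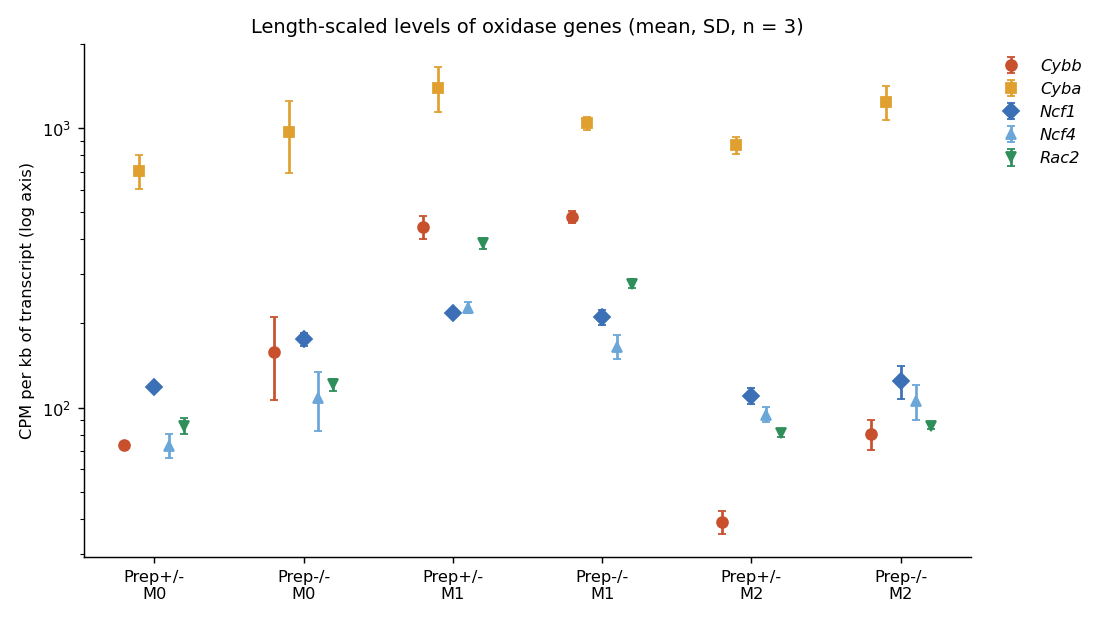
Mean level in CPM per kb of canonical transcript (log axis) of the 5 members in the 6 groups, with bars of SD (n = 3). Cyba lies above the other members in every group, and Cybb is the lowest of the 5 in both M2 groups and the second highest in both M1 groups.

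Across the 18 libraries, which share groups and treatments, log2 CPM of Cybb went with that of Ncf1 (Pearson r = 0.96) and Rac2 (r = 0.93), and Ncf4 with Rac2 (r = 0.92), while Cyba went less closely with Cybb (r = 0.43), Ncf1 (r = 0.44), Rac2 (r = 0.55) and Ncf4 (r = 0.70). Among 9600 genes with a mean of at least 5 CPM, those most like Cybb were Aoah (r = 0.992), an enzyme that deacylates LPS, Ikbke (r = 0.988), a kinase of interferon induction, and the copper importer Slc31a1 (r = 0.987). The closest to Rac2 were the collagen hydroxylase gene Plod3 (r = 0.995), the peroxiredoxin gene Prdx5 (r = 0.991) and Rab20 (r = 0.990), a GTPase of phagosomes. Ncf1 was most like Ms4a6c (r = 0.980), Ubac2 (r = 0.980) and Rnaset2a (r = 0.976), and Ncf4 was most like Ube2f (r = 0.956), Cdc42ep2 (r = 0.955) and Ehbp1l1 (r = 0.954). Cyba had the lowest such values, with Tmem258 (r = 0.939), Timm8b (r = 0.921) and 4933434E20Rik (r = 0.919). These are descriptions over n = 18 libraries of 6 groups.

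Of 15 further oxidase genes, 10 were in the table and 8 could be tested. The chaperone gene Cybc1, which is needed for gp91phox protein, rose with knockout in M1 (log2FC 0.41 ± 0.10 (SE), adjusted p = 0.0052) and with LPS in both genotypes (log2 fold changes 0.55 and 0.79). Hvcn1, the proton channel that balances the charge moved by the oxidase, rose with knockout in M2 (log2FC 0.75 ± 0.13 (SE), adjusted p = 0.000682). Of the inhibitors that hold Rac in the cytosol, Arhgdia fell with knockout in M0 (log2FC -0.59 ± 0.10 (SE), adjusted p = 0.000145). In M1 both Arhgdia (log2FC -0.34 ± 0.10 (SE), adjusted p = 0.0128) and Arhgdib (log2FC -0.64 ± 0.14 (SE), adjusted p = 0.00267) fell, and Arhgdia lay at the threshold without Prep+/- M1 replicate 2 (adjusted p = 0.0505).

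Rac1, the broadly expressed relative of Rac2, was at 592, 587 and 600.3 CPM in Prep+/- M0 and at 500.5, 536 and 536 CPM in Prep+/- M1, and unlike Rac2 it did not pass the test with LPS (log2FC -0.18 ± 0.09 (SE), adjusted p = 0.124). In Prep-/- BMDMs Rac1 fell with LPS (log2FC -0.51 ± 0.09 (SE), adjusted p = 0.000208), and it fell with knockout in M1 (log2FC -0.32 ± 0.09 (SE), adjusted p = 0.0154), which was lost, at adjusted p of 0.0542 to 0.0602, without Prep+/- M1 replicate 2 or 3 or Prep-/- M1 replicate 1 or 2. Rap1a, a GTPase that copurifies with the flavocytochrome, rose with knockout in M0 (log2FC 0.31 ± 0.09 (SE), adjusted p = 0.00994). Noxo1, an organiser of the nonphagocytic oxidase, rose with knockout in M0 (log2FC 1.38 ± 0.38 (SE), adjusted p = 0.00707) and M1 (log2FC 1.41 ± 0.44 (SE), adjusted p = 0.0194) but stayed at or below 4.79 CPM; neither passed without the first knockout replicate of its state (adjusted p = 0.0564 and 0.146), nor M1 without Prep+/- M1 replicate 2 (adjusted p = 0.0923). Nox1 fell with knockout in M0 (log2FC -3.04, adjusted p = 0.00173), but on 11 to 16 counts in Prep+/- M0 and 0 to 3 in Prep-/- M0 libraries. It was at or below 0.865 CPM in every library, and Noxa1 and Duoxa1 were at or near 0 and were not tested. Counted as DEGs, 1 gene of this list was higher (Noxo1) and 2 were lower (Arhgdia and Nox1) with knockout in M0. In M1 1 was higher (Noxo1) and 1 lower (Arhgdib), and Hvcn1 was the 1 DEG in M2. So 3, 2 and 1 of 8 tested genes stand beside 32.6%, 22.5% and 16.2% of all genes, and Noxo1 and Nox1 are among them at low levels.

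Genes of the factors at oxidase promoters were 10 in the table, 9 of them tested. With knockout in M0, 7 rose, of which 3 were DEGs, and 0 fell by edgeR or DESeq2, with 1 lower at an unadjusted p under 0.05. Irf2, 1 of the 3 DEGs, Cebpb and Rela were each lost without some single library (adjusted p up to 0.0624, 0.304 and 0.0833). Over all genes 48.5% passed and 32.6% were DEGs, so the share of DEGs in the list was near the background; the median log2 fold change of the list was 0.41, beside 0.0185 over all genes. Irf1 (log2FC 1.48 ± 0.27 (SE), adjusted p = 0.000358) and Irf8 (log2FC 1.26 ± 0.15 (SE), adjusted p = 9.96e-06) changed most. Irf8 was at 106, 89.9 and 89.7 CPM in Prep+/- M0 and at 261, 233 and 189 CPM in Prep-/- M0, without overlap. Spi1, named here after its values were seen because its letters are in the windows above, rose by less (log2FC 0.37 ± 0.12 (SE), adjusted p = 0.0175), which was lost without Prep+/- M0 replicate 2 (adjusted p = 0.055), Prep+/- M0 replicate 3 (adjusted p = 0.0923) or Prep-/- M0 replicate 1 (adjusted p = 0.0902). In M1, Irf1 (log2FC 1.44 ± 0.27 (SE), adjusted p = 0.00102) and Irf2 (log2FC 0.88 ± 0.18 (SE), adjusted p = 0.00181) rose, whereas Irf8 (log2FC 0.07 ± 0.15 (SE), adjusted p = 0.758) did not pass. In that state 2 of 9 genes rose and 1 fell, beside 36.4% of all genes. The gene that fell, Nfkb1, was lost without some single library (adjusted p up to 0.0586). In M2, Irf1 (log2FC 1.16 ± 0.27 (SE), adjusted p = 0.00482) and Irf8 (log2FC 0.84 ± 0.15 (SE), adjusted p = 0.000761) rose, among 3 of 9 that rose, beside 24.7% of all genes, and 0 fell by edgeR, by DESeq2 or at an unadjusted p under 0.05. The other gene that rose, Irf2, was lost without each single M2 library except Prep-/- M2 replicate 3 (adjusted p up to 0.125). With LPS 5 of the 9 rose and 0 fell in Prep+/- BMDMs, beside 52.1% of all genes. In Prep-/- BMDMs 3 rose and 1 fell, beside 57.1%. Cebpb had the largest change and rose in both (log2 fold changes 2.41 and 2.14). Irf8 rose in Prep+/- (log2FC 1.09 ± 0.15 (SE), adjusted p = 1.51e-05) but did not pass in Prep-/- BMDMs (log2FC -0.10 ± 0.15 (SE), adjusted p = 0.585), and the interaction passed (difference -1.19 ± 0.21 (SE), adjusted p = 0.00102). In that test 4 of the 9 passed lower and 0 higher, beside 24.6% of all genes. Irf1 and Nfkb1 in Prep+/-, Spi1 and Irf1 in Prep-/-, and Spi1, Nfkb1 and Crebbp in the interaction were lost without some single library.

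The 18 genes listed for activation of the oxidase include kinases, Rac exchange factors and Rac GTPase-activating proteins, so a rise need not favour activity. With knockout in M0, 7 of them rose and 2 fell, beside 48.5% of all genes that passed. Of the 7, Prkcb, Vav1 and Vav2 were each lost without some single library (adjusted p up to 0.143, 0.0925 and 0.139). In M1 1 rose and 1 fell, beside 36.4%. The gene that fell, Pak2, was lost without some single library (adjusted p up to 0.0641). In M2 7 rose and 3 fell, beside 24.7%. Of the 7, Prkcb, Prex1, Dock2, Syk and Arhgap25 were each lost without some single library, with adjusted p up to 0.164, 0.128, 0.095, 0.0508 and 0.258. The list medians in M0, M1 and M2 were 0.11, 0.12 and 0.23 on the log2 scale, beside 0.0185, 0.0357 and 0.0269 over all genes. In M0 the most changed were Pla2g4a (log2FC -2.88 ± 0.20 (SE), adjusted p = 1.23e-07), which encodes a phospholipase that releases arachidonic acid, and Elmo1 (log2FC -1.53 ± 0.16 (SE), adjusted p = 2.35e-06), part of a Rac exchange factor. In M1 Pik3cd, a lipid kinase gene, rose (log2FC 0.63 ± 0.11 (SE), adjusted p = 0.000608). In M2 the guanine nucleotide exchange factor gene Vav2 (log2FC 1.06 ± 0.20 (SE), adjusted p = 0.00119) and the Rac GTPase-activating protein gene Arhgap25 (log2FC 1.05 ± 0.34 (SE), adjusted p = 0.0323) rose most. The Arhgap25 value was carried by 1 library: it was at 92.3, 114 and 153 CPM in Prep+/- M2 and at 171, 131 and 442 CPM in Prep-/- M2, with overlap. Without Prep-/- M2 replicate 3 its log2FC was 0.34 (adjusted p = 0.258), and it also did not pass without Prep+/- M2 replicate 1 (adjusted p = 0.123) or 2 (adjusted p = 0.101). Among 9 genes of NADPH supply, 1 rose and 3 fell in M0, 1 rose and 1 fell in M1, and 1 rose and 1 fell in M2, shares below those of all genes. Idh1, a cytosolic source of NADPH, was the gene that rose in each state (log2 fold changes 0.96, 0.63 and 0.64), and Me1, the malic enzyme gene, fell in M0 (log2FC -1.88 ± 0.30 (SE), adjusted p = 9.86e-05) and M2 (log2FC -1.58 ± 0.30 (SE), adjusted p = 0.00119). Of 7 tested genes that remove superoxide and peroxide, 2 rose in M0, 1 rose and 4 fell in M1, and 0 passed in M2, beside the same 48.5%, 36.4% and 24.7% of all genes. The fall of Sod1 and of Prdx5 in M1 was lost without any 1 of 5 of the 6 M1 libraries, all except Prep+/- M1 replicate 1, and the list shares in M0 and M2 were below those of all genes.

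Within that last list, Prdx5 rose with knockout in M0 (log2FC 0.75 ± 0.18 (SE), adjusted p = 0.00297), and in M1 Cat rose (log2FC 1.07 ± 0.15 (SE), adjusted p = 0.000155) while Sod2, the mitochondrial superoxide dismutase gene, fell (log2FC -0.86 ± 0.16 (SE), adjusted p = 0.00106). Sod2 and Prdx5 rose with LPS in both genotypes, Sod2 by 4.73 in Prep+/- and 3.92 in Prep-/- and Prdx5 by 3.61 and 2.35 on the log2 scale. The interaction for Prdx5 was -1.26 ± 0.26 (SE, adjusted p = 0.00242). In the same test Sod1 (difference -0.95 ± 0.27 (SE), adjusted p = 0.0163) and Sod2 (difference -0.80 ± 0.23 (SE), adjusted p = 0.0193) were lower and Cat was higher (difference 0.63 ± 0.21 (SE), adjusted p = 0.0405), so the list went both ways. Each of these 3 was lost without some single libraries, with adjusted p up to 0.0561, 0.0629 and 0.116. For the M2 knockout comparison, in which edgeR passed 0 of the 7 genes, 2 had an unadjusted p under 0.05 and DESeq2 passed 1.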

How the data were processed

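RNA was extracted from BMDMs with TRIzol, and stranded poly(A) libraries were sequenced with paired reads. Per the labels and the study's methods, the authors trimmed reads with Trimmomatic 0.36, aligned them to GRCm39 with HISAT2 2.2.1.0 and deposited 1 table of whole-number gene counts for all 18 libraries, with no normalization; the strand setting and the treatment of reads with several matches are not given in the sources used here. Genes with low counts were dropped by filterByExpr, which left 12021 of 16314 genes. Counts were scaled by TMM and tested with edgeR 4.0.16 (R 4.3.3): 1 quasi-likelihood model over the 6 groups gave 10 comparisons, each adjusted by the Benjamini-Hochberg method over all tested genes. For DEGs the study's limits were kept (1.5-fold, adjusted p of 0.05), and DESeq2 (1.42.0), the tool of the study, served as an alternative. Log2 CPM for correlations used a prior count of 2.

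The members and lists were chosen with earlier results of these data known. Some genes of these lists are not reported here and were left out of the list counts. From each further list the text names, per comparison, at most the 2 DEGs with the largest change among genes with a group mean of at least 5 CPM, plus the further oxidase genes in the table, and for each member the 3 genes with the highest correlation. On simulated counts for the M0 knockout comparison (12021 genes, 200 of them changed 2-fold), edgeR called 74% of the changed genes, with 1.33% of calls among unchanged genes. DESeq2 called 75.5%, with 6.21% of calls among unchanged genes. The simulated spread followed the fitted trend and held no library that stood apart. The real comparison had such a library and 3913 DEGs, so these rates do not carry over to it. Totals of 19068237 to 22598279 reads keep the counting error of the members small beside the spread between libraries. Replicate libraries of a group differed by more than sampling noise in every pair (chi-square of 9.87 to 120 per gene). Same-numbered libraries deviated together, with every correlation over 0.1, in the M2 knockout comparison (0.249 to 0.462) and in M1 against M0 within Prep-/- (0.169 to 0.259), and not in the other comparisons; the labels do not say what a number marks. Alternatives were DESeq2, its size factors, no filter on low counts, the adjusted p alone, only the compared libraries, a replicate block, leaving out each library, and exon union lengths for levels per length. Sequences were read from GRCm39 at GENCODE vM39 canonical transcript starts.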

Additional observations from a re-analysis of the deposited data

Results flagged for a closer look

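The effect of Prep knockout differed between M1 and M0 BMDMs for all 5 members by the edgeR interaction test, with log2 differences of -0.99 for Cybb, -0.88 for Cyba, -0.61 for Ncf1, -1.03 for Ncf4 and -0.98 for Rac2. It also differed between M2 and M1 BMDMs for Cybb (0.92) and Cyba (0.94). The interactions share libraries, so these are not independent results. Cyba in M1 against M0, and Cybb and Cyba in M2 against M1, were the ones whose adjusted p went above 0.05 when some single libraries were left out.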

How the results depend on the processing

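No called value of a member reversed under any alternative tried. With the adjusted p alone, without the fold limit, 4 members were called for knockout in M0 (adding Ncf1 at 0.57, Ncf4 at 0.57 and Rac2 at 0.49 on the log2 scale), 2 in M1 (Ncf4 at -0.46, Rac2 at -0.48), 3 for M2 against M0 in Prep-/- and 1 for the interaction of M2 against M0. The M2 against M1 interaction called 4 members with DESeq2 and 4 with its size factors, against 2. Over all genes these settings called 1742 and 1452, against 1435. Leaving out single libraries gave 1 to 3 members called for knockout in M0, 1 to 2 in M2, 1 to 2 for M2 against M0 in Prep-/-, and 0 to 4 for the M2 against M1 interaction. Over the same libraries the M0 knockout effect ran from 0.22 to 0.66 for Cyba, 0.53 to 0.60 for Ncf1 and 0.36 to 0.66 for Ncf4, the M2 effect of Cyba from 0.43 to 0.63, and the M1 against M0 interaction from -1.09 to -0.66 for Cyba and -0.67 to -0.58 for Ncf1. The cause was not tested. With a replicate block over only the compared libraries the Cyba interaction was -0.90 with an adjusted p of 0.0544, and the block changed no other DEG call of a member; the adjusted p alone of Ncf4 (0.0626) and Rac2 (0.073) for knockout in M0, and of Ncf1 (0.0602) and Rac2 (0.0579) for M2 against M0 in Prep-/-, was then over the threshold. Fewer samples entered those fits.

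Over all genes, DEGs numbered 2700 for knockout in M1, but 4370 with the adjusted p alone and 1742 without Prep-/- M1 replicate 1. They numbered 1947 for knockout in M2 and 2967 with the adjusted p alone. M2 against M0 in Prep-/- gave 3636 DEGs and 2341 with the block over the compared libraries. The interaction of M2 against M0 gave 1041, but 562 with only the compared libraries, 669 with the block in them, and 502, 555, 557 and 609 without Prep+/- M0 replicate 2, Prep+/- M0 replicate 3, Prep+/- M2 replicate 1 and Prep+/- M2 replicate 2.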
